A study of Mus musculus with 16 samples.

Results

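A set of 44 genes was almost silent on average in wild-type (WT) mouse liver and reached a higher mean level in liver whose hepatocytes lacked Arglu1 (LKO). In 32 of them every LKO library lay above every WT library, against 6.8% of all 14762 genes tested. The choice of the genes used that contrast, so nothing is read from the count. Another 8 are muscle genes with more than 50% of their LKO sum in a single library. The genes were chosen by level from the 35712 genes of the count table. Each averaged below 0.5 CPM (the count of a gene divided by the sum of its library and multiplied by 1000000) over the 8 WT libraries and at least 2 CPM over the 8 LKO libraries. The thresholds were passed by 60 genes. Of these, 16 were left out by symbol: predicted Gm genes, members of the Cyp, Mup and Dnah families, and Aqp7, Avil, Myo7b, Psrc1, Rbm24 and Slc1a1. Because the difference between LKO and WT chose the genes, their levels in the 2 genotypes are described here without a test. The rule pooled chow and a high-fat diet (HFD), and 24 of the genes reached 2 CPM in LKO on only 1 of them, 7 on chow and 17 on HFD. Since a difference between the diets helped to select these 24, it is described without a test, and HFD against chow in LKO was tested for the other 20. The same minimum favours small diet differences among those 20.

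The study sequenced poly(A) RNA from livers of female mice that had reached 9 months of age on chow. Each genotype then spent 12 weeks either on chow or on HFD (diet TD. 88137), which gave 4 groups of 4 libraries: WT on chow, WT on HFD, LKO on chow and LKO on HFD. The knockout is described as one of hepatocytes. A deletion in hepatocytes alone would leave the gene in the other cells of the liver, which was not tested. The labels name neither the promoter that drove the deletion nor the exons removed. They do not say that each library came from a separate animal, so the errors and tests cover the variation from library to library, which may be technical. In RNA of whole liver, more cells of a type and more RNA per cell cannot be told apart.

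Libraries held 19157822 to 25136919 estimated counts. At these depths 0.5 CPM stands for 9.58 to 12.6 counts, and a count of 0 allows a level of up to 0.119 to 0.157 CPM (3 counts, counting error only). Arglu1 itself ran from 35.8 to 45.2 CPM in the WT and from 12.7 to 17.3 CPM in the LKO libraries, so every label fitted its genotype. The sum of 13 hepatocyte markers on chow was 114744 to 134340 CPM in the WT libraries against 135902 to 151988 CPM in the LKO libraries, and on HFD 86769 to 97552 against 110128 to 121793 CPM. While these sums were higher in LKO, the median log2 fold change of the 13 markers was -0.27 on chow, with 5 called lower and none higher by edgeR, and -0.06 on HFD, with 2 lower and 1 higher. LKO HFD library 2 and WT HFD library 4 stood apart from the rest in genes of skeletal muscle. The size of the set, the diet difference of Ldb3 and 2 counts over all genes are given with and without them. These counts are for genotype on HFD and for diet in LKO. Calls of neighbours and gene lists on HFD are given only with them. Over all genes, calls for genotype on HFD went from 2712 to 1653 without both.

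ARGLU1 is a nuclear protein rich in arginine and glutamate that acts as a coactivator of nuclear receptors and takes part in alternative splicing. Genes that belong to muscle, nerve, inner ear, kidney or epidermis are normally kept off in hepatocytes, by the absence of the factors that activate them and by repressive chromatin. Promoters rich in CG dinucleotides are typical of genes used in most cells, and promoters poor in them are typical of genes restricted to a tissue.

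The 44 genes were scattered over the genome, and the promoters found for 34 of them held fewer CG dinucleotides at the median than those of all tested genes. The genes lay on 15 chromosomes, with 7 on chromosome 7 and 6 each on chromosomes 2, 3 and 13, and no gene of the set was the nearest neighbour of another. All but Rps6-ps4, a pseudogene of a ribosomal protein gene, were protein coding. RefSeq promoter windows (GRCm38.p6, from 250 bases before to 50 bases after the listed start) were found for these 34. To show this range, the bases upstream of RefSeq's outermost start are printed below, 5′ to 3′, for the 5 genes with the highest ratio of LKO to WT among those with a window whose LKO libraries all lay above all WT libraries. CG dinucleotides are in capitals. The stretches are chr1:193035872-193036025 (minus strand), chr11:73233899-73234148 (plus), chr6:48537319-48537568 (plus), chrX:136138746-136138995 (plus) and chr7:81057350-81057468 (plus).
Syt14: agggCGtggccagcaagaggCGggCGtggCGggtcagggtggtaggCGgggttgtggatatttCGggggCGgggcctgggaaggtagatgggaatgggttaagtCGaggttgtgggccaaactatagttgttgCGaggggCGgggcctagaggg
Trpv1: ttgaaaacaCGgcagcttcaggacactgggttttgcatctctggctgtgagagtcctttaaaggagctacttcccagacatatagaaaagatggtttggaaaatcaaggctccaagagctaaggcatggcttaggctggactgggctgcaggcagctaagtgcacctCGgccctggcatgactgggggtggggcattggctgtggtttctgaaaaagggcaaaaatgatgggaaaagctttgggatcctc
Atp6v0e2: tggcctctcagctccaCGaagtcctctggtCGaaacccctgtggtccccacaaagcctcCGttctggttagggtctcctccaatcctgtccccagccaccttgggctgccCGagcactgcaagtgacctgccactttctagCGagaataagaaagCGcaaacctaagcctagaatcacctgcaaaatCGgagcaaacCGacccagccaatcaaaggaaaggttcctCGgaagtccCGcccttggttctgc
Bex4: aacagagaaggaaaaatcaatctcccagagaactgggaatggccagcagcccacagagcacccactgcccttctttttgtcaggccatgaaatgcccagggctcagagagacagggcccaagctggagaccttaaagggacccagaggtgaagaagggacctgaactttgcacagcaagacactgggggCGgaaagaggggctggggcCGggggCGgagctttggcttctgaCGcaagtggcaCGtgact
Alpk3: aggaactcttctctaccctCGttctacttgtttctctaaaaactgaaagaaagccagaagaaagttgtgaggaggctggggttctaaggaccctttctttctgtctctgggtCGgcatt

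The stretch of Syt14 held 10 CG dinucleotides in 154 bases, and that of Atp6v0e2 10 in 250. Bex4 had 5 in 250 bases, all in the last part before the start, Trpv1 had 2 in 250 and Alpk3 2 in 119. As the stretches differ in length, they do not rank the genes. In the full windows Syt14 had 29 CG dinucleotides, Atp6v0e2 18, Alpk3 15, Bex4 9 and Trpv1 4. Genes with very different promoters were therefore among those with the highest ratios. Over the full windows of 300 bases, the 34 genes had a median of 7.5 CG dinucleotides, from 0 for Sprr1a to 29 for Syt14. The median was 20 over the 11089 tested genes with a window and 15 over all 16133. At least 10 CG dinucleotides were found in 32.4% of the 34 windows, in 76.5% of the windows of tested genes and in 61.2% of all windows. Among the 25 genes with a window whose LKO libraries all exceeded all WT libraries the share was 40.0%. At most 3 CG dinucleotides were found in 11.8% of the 34 windows, 9.42% of those of tested genes and 20.6% of all windows. Genes equally near silent in WT were not compared, so the low median is not shown to be particular to the set.

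**Figure D1:**
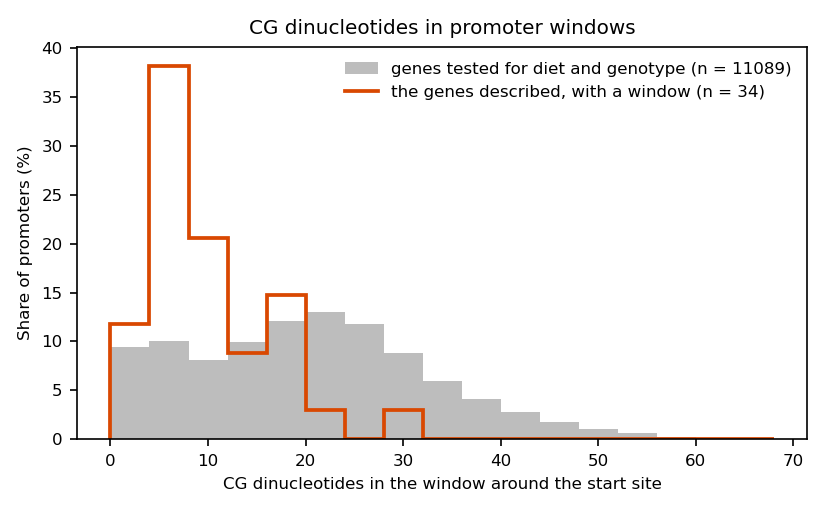
Number of CG dinucleotides in the promoter window of 300 bases (x axis, in steps of 4) against the share of promoters in percent (y axis), for the 34 genes of the set with a window (line) and for the 11089 tested genes with a window (grey). The line peaks between 4 and 8, where it holds 38.2% of windows against 10.1% of the grey ones.

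Short sequence motifs were counted on both strands of the windows. The AP-1 site TGACTCA, bound by Fos and Jun proteins, was present in 5 of the 34 windows (14.7%), against 4.57% of all windows and 3.90% of those of tested genes. The 5 genes were Lcn12, Ldb3, Sbsn, Sprr1a and Vtcn1, and Sprr1a had it at 2 places. These are the only windows in the set that carry the motif, so each match is printed with 10 bases on either side, in the direction of the gene and with the motif in capitals. In the order shown they lie at chr2:25494120-25494146 (minus), chr14:34588760-34588786 (minus), chr7:30751455-30751481 (plus), chr3:92486011-92486037 (minus), chr3:92485981-92486007 (minus) and chr3:100825450-100825476 (plus). The match of Vtcn1 lies just after the listed start, that of Sbsn ends on the listed start base, and the others lie before it.
Lcn12: ggcacgtttcTGACTCAcctgtaggtg
Ldb3: attagctgcgTGAGTCAtggtggaccg
Sbsn: caggagggatTGAGTCAtgaggggtgg
Sprr1a: taactaaagcTGAGTCAgagggtgaac
Sprr1a: gggaggagggTGAGTCAtaggtgactg
Vtcn1: gaacccgatgTGAGTCAcaacacccag

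The other motifs counted lay above or below their share among all promoters. The TATA box (TATAAA) was found in 5 windows (14.7% against 11.5% of all), those of Sprr1a, Inka2, Alpk3, H4c12 and Lrrc14b. The CCAAT box (CCAAT) was found in 17 of the 34, against 38.7% of all, and the E-box (CACGTG) in 4 (11.8% against 8.28%). The GC box (GGGCGG) occurred in 10 windows (29.4% against 49.7%). A decamer of the p53 response element was found in 3 windows (8.82% against 7.35%), those of Lcn12, G6pc2 and H4c12, and the STAT motif TTCNNNGAA in that of Ckmt2 alone (2.94% against 7.52%). No window held the letters of the cAMP response element (TGACGTCA, 2.47% of all windows), the interferon response motif (3.17%), the direct repeat of nuclear receptors (0.0558%) or the RE1 core (TTCAGCACC, 0.415%). A match describes letters in a window and not a bound site.

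The set held 2 kinds of gene. In 32 genes every LKO library lay above every WT library on both diets. In the other 12 the libraries of the genotypes overlapped: Ckmt2, Cmya5, Dmbt1, Ldb3, Lrrc14b, Mb, Mybpc1, Myh7, Rps6-ps4, Sprr1a, Tnnc2 and Tnni2. Among all 14762 genes tested, 6.8% had every LKO library above every WT library. The choice of the genes used that contrast, and nothing is read from the count. In 11 of the 12 overlapping genes 1 library held more than 50% of the sum over the LKO libraries, and the exception was Lrrc14b. In the 32 genes the highest library held 14.9% to 39.3% of the sum, where 12.5% would be an equal share. Without their highest library, 16 of the 44 genes would average below 2 CPM in LKO, 5 of them among the 32.

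**Figure D2:**
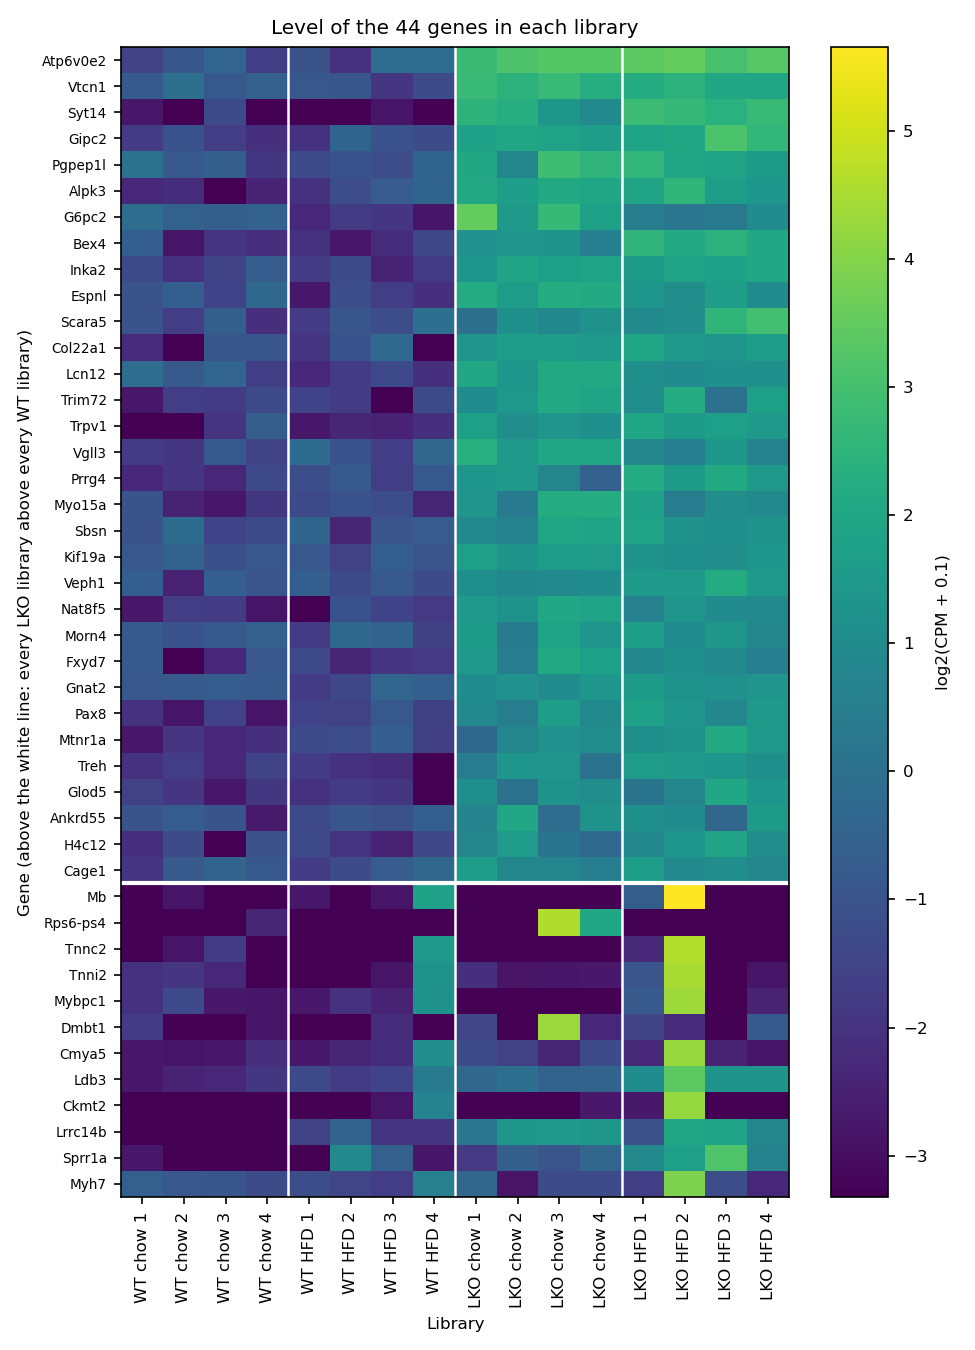
Level of each of the 44 genes (rows) in each of the 16 libraries (columns) as log2(CPM + 0.1), with white vertical lines between the 4 groups. Above the white horizontal line are the 32 genes whose LKO libraries all lie above all WT libraries, and below it the 12 whose libraries overlap, in which most of the bright cells fall in LKO HFD library 2.

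**Figure D3:**
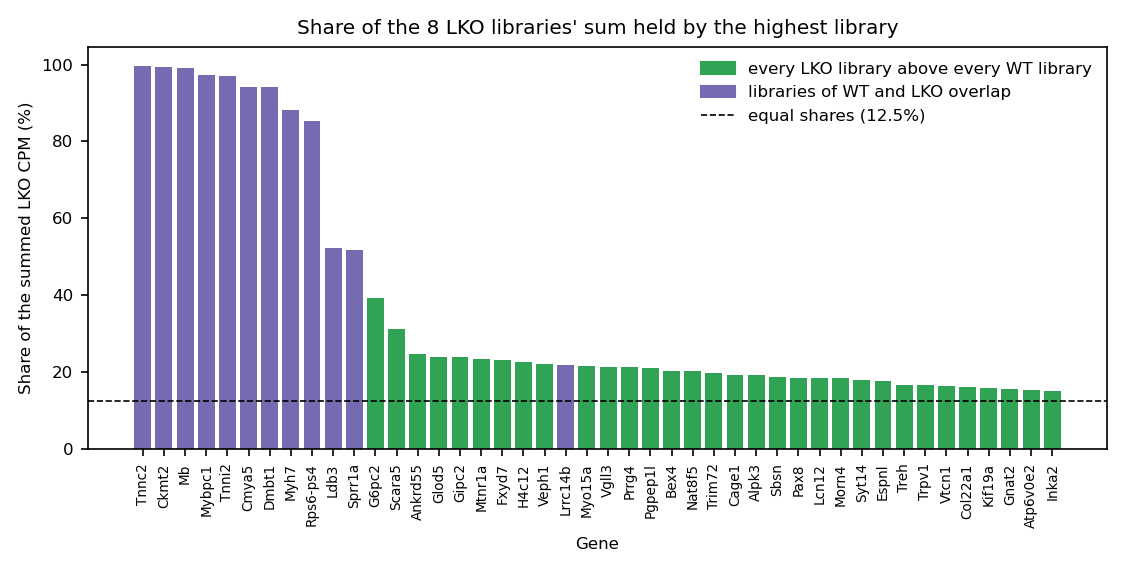
Share of the summed CPM of the 8 LKO libraries held by the highest of them, in percent, for each gene. Green bars (32 genes without overlap) lie between 14.9% and 39.3%, violet bars (12 genes with overlap) reach above 50% in all but Lrrc14b, and the dashed line marks equal shares of 12.5%.

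The 32 genes without overlap were low in abundance but above the counting limit in every LKO library. Their median level was 2.79 CPM in LKO and 0.290 CPM in WT, and the median ratio of the 2 means was 10.3 (range 4.75 to 101). This corresponds to a median of 62.4 counts in an LKO and 6.38 counts in a WT library. None of them was at 0 in an LKO library, and 10 were at 0 in at least 1 WT library. In 21 of the 32 the lowest LKO library had more than 2 times the level of the highest WT library. The ratio of the lowest LKO to the highest WT library ran from 1.03 to 8.36. The coefficient of variation over the 8 LKO libraries had a median of 35.5% and ran from 13.3% for Gnat2 to 98.9% for G6pc2. The highest LKO library was LKO HFD 1 for 8 of the genes, LKO chow 3 for 7, LKO chow 1 and LKO HFD 3 for 5 each, and each other LKO library for 1 to 3. Per kilobase of exon, the 32 genes had a median LKO level of 0.821 CPM, from 0.210 for Myo15a to 6.53 for H4c12.

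The first group of these genes encodes pumps, channels, receptors and their partners. Atp6v0e2, a subunit of the proton pump of vesicles (chr6:48537569-48541801), had the highest LKO mean of the set. Its level was 6.93, 8.75, 9.69 and 9.66 CPM in LKO chow libraries 1 to 4 and 10.5, 11.5, 8.10 and 9.89 CPM in LKO HFD libraries 1 to 4. The WT libraries ran from 0.145 to 0.829 CPM (median 0.412). The lowest LKO library thus stood far above the highest WT library, and the mean was 9.38 ± 1.42 CPM against 0.468 ± 0.272 CPM (SD, n = 8 each), a ratio of 20.0. Trpv1, the heat- and capsaicin-gated channel of sensory neurons (chr11:73234149-73261322), was at 3.32, 2.07, 2.48 and 2.19 CPM in the LKO chow libraries and 3.76, 2.87, 3.23 and 2.81 CPM in the LKO HFD libraries. In WT it ran from 0 to 0.525 CPM (median 0.0895), with 23 counts over the 8 libraries. Trpv1 was thus even across LKO libraries, with a ratio of 21.8. Gnat2, the alpha subunit of the cone transducin of the retina, had the smallest spread of the set, from 1.93 to 2.87 CPM (median 2.29) in LKO and from 0.198 to 0.663 CPM (median 0.472) in WT. Mtnr1a, a melatonin receptor, ran from 0.719 to 4.23 CPM (median 2.17) in LKO. Its WT libraries ran from 0.0489 to 0.539 CPM (median 0.199). Fxyd7, a regulator of the sodium pump best known from brain, ran from 1.31 to 4.32 CPM (median 1.99) in LKO and from 0 to 0.489 CPM (median 0.174) in WT. It lies between Fxyd5 and Fxyd1, at 184 and 224 bases from them.

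Genes of vesicle traffic and the cytoskeleton formed a second group, several of them known from the stereocilia of inner ear hair cells. Syt14, a synaptotagmin of membrane traffic (chr1:192882653-193035871), had the highest ratio of the 32. Its LKO chow libraries were at 5.48, 4.73, 2.62 and 1.88 CPM and its LKO HFD libraries at 7.09, 6.19, 5.24 and 6.65 CPM. In WT it was at 0 in 5 of 8 libraries and at no more than 0.304 CPM in the others, with 8 counts in all against 904 in LKO, a ratio of 101. Syt14 was lowest in LKO chow libraries 3 and 4, which still lay above every WT library. Gipc2, a PDZ-domain adaptor, was at 3.37, 3.86, 3.54 and 3.17 CPM in LKO on chow and 3.59, 4.03, 8.59 and 6.03 CPM on HFD, with WT libraries from 0.131 to 0.647 CPM (median 0.261). LKO HFD libraries 3 and 4 were the highest, and the other 6 lay close together. Inka2, an inhibitor of the kinase PAK4, was among the most even genes, from 2.54 to 4.02 CPM (median 3.43) in LKO and from 0.0864 to 0.506 CPM (median 0.229) in WT. Espnl, an actin-bundling relative of espin, ran from 1.92 to 4.59 CPM (median 2.98) in LKO and from 0.0494 to 0.700 CPM (median 0.295) in WT. Myo15a, the myosin that elongates stereocilia, ran from 1.15 to 4.59 CPM (median 2.26) in LKO and from 0.0508 to 0.391 CPM (median 0.236) in WT. Morn4, a stereociliary protein that binds a myosin, ran from 1.19 to 3.58 CPM (median 2.58) in LKO and from 0.198 to 0.721 CPM (median 0.473) in WT. Of these 3 stereociliary genes, Espnl was lowest in LKO HFD library 4 and the other 2 in LKO chow library 2. Kif19a, a kinesin that limits the length of cilia, ran from 2.05 to 3.28 CPM (median 2.47) in LKO and from 0.240 to 0.589 CPM (median 0.439) in WT.

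Secreted and surface proteins made up another group. Vtcn1 encodes B7-H4, a ligand that restrains T cells (chr3:100825459-100896922). It was at 6.74, 5.29, 6.61 and 4.75 CPM in LKO on chow and 4.59, 5.34, 4.02 and 3.84 CPM in LKO on HFD, and its WT libraries ran from 0.166 to 0.883 CPM (median 0.451). Every LKO library had more than 4 times the level of the highest WT library. Scara5, a ferritin receptor that is on the list of male-biased liver genes, was at 0.898, 2.19, 1.75 and 2.35 CPM in LKO on chow and 1.88, 2.06, 5.74 and 7.67 CPM on HFD. LKO HFD libraries 3 and 4 carried most of its signal, and LKO chow library 1, at 0.898 CPM, barely exceeded the highest WT library at 0.870 CPM. Col22a1, a collagen of tissue junctions, was even, from 2.47 to 3.75 CPM (median 2.90) in LKO and from 0 to 0.729 CPM (median 0.265) in WT. Lcn12, a lipocalin of the epididymis, ran from 1.90 to 4.32 CPM (median 2.36) in LKO and from 0.0989 to 0.831 CPM (median 0.254) in WT. Sbsn, suprabasin of the epidermis, ran from 1.51 to 3.90 CPM (median 2.28) in LKO and from 0.0962 to 0.799 CPM (median 0.403) in WT. Prrg4, a membrane protein with a Gla domain, ran from 0.579 to 4.65 CPM (median 2.76) in LKO and from 0.0980 to 0.483 CPM (median 0.253) in WT. The lowest LKO libraries of Sbsn and Prrg4 were LKO chow 2 and LKO chow 4.

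Metabolic enzymes formed a further group. G6pc2 (chr2:69211073-69227993), the glucose-6-phosphatase of pancreatic islets, differed most between LKO libraries and is described with the diets. Nat8f5, an acetyltransferase-like protein on the list of male-biased liver genes, was at 2.70, 2.27, 4.04 and 3.5 CPM in LKO on chow and 1.41, 2.47, 1.93 and 1.79 CPM on HFD, with WT libraries from 0 to 0.385 CPM (median 0.193). It lies in a cluster of close copies, between which reads may be shared. Treh, the trehalase of intestinal and renal brush borders, ran from 0.940 to 2.92 CPM (median 2.47) in LKO and from 0 to 0.263 CPM (median 0.145) in WT. Pgpep1l, a peptidase-like protein, ran from 1.63 to 7.25 CPM (median 3.90) in LKO and from 0.175 to 0.928 CPM (median 0.424) in WT. Glod5, a glyoxalase-domain protein, ran from 0.955 to 3.94 CPM (median 2.10) in LKO and from 0 to 0.244 CPM (median 0.167) in WT. Only LKO chow library 2 of Pgpep1l fell below 2 CPM.

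Of the remaining genes without overlap, 3 act in the nucleus. Pax8, a transcription factor of thyroid and kidney, ran from 1.27 to 3.39 CPM (median 2.17) in LKO and from 0.0420 to 0.456 CPM (median 0.235) in WT. Vgll3, a cofactor of TEAD transcription factors, ran from 1.38 to 4.82 CPM (median 2.69) in LKO and from 0.168 to 0.791 CPM (median 0.324) in WT. H4c12 encodes histone H4 and ran from 0.730 to 3.68 CPM (median 1.90) in LKO, but near-identical copies make the split of its reads uncertain. Alpk3, a kinase of heart and skeletal muscle (chr7:81057469-81105612), was at 4.13, 3.10, 4.32 and 3.91 CPM in LKO on chow and 3.70, 5.83, 3.06 and 2.51 CPM on HFD, with WT libraries from 0 to 0.641 CPM (median 0.137). It was thus present in every LKO library, also in those where myoglobin was at 0. Trim72, which repairs muscle cell membranes, ran from 0.921 to 4.57 CPM (median 2.97) in LKO and from 0 to 0.320 CPM (median 0.207) in WT. Alpk3 and Trim72 were both highest in LKO HFD library 2 and, within WT, in WT HFD library 4. Without LKO HFD library 2 their LKO means were 3.53 and 2.68 CPM. Bex4, a small brain-expressed X-linked protein, ran from 1.36 to 5.68 CPM (median 3.28) in LKO and from 0.0420 to 0.538 CPM (median 0.140) in WT. Veph1, a membrane protein with a PH domain, ran from 1.70 to 4.47 CPM (median 2.42) in LKO and from 0.0858 to 0.549 CPM (median 0.445) in WT. The last 2 genes lie near the lower threshold: Cage1, a cancer-testis antigen, ran from 1.33 to 3.10 CPM (median 1.77) in LKO, and Ankrd55, an ankyrin repeat protein, ran from 0.670 to 4.06 CPM (median 2.09) in LKO. Riok1 overlaps Cage1, Gapdhs overlaps Sbsn and Ccdc127 overlaps Lrrc14b, and since it is not given whether strand was used in counting, reads of such pairs cannot be told apart.

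The genes whose libraries overlapped were mostly genes of striated muscle, and they were high in a single LKO library. Mb (myoglobin), Ckmt2 (the creatine kinase of muscle mitochondria), Cmya5 (myospryn), Ldb3 (a Z-disc protein), Mybpc1 (a myosin-binding protein), Myh7 (the slow myosin heavy chain) and the fast troponins Tnnc2 and Tnni2 were all highest in LKO HFD library 2. Mb was at 50.2 CPM there, at 0.522 CPM in LKO HFD library 1 and at 0 in the other 6 LKO libraries. In WT it was at 3.43 CPM in WT HFD library 4 and at most 0.0494 CPM elsewhere. Tnnc2 was at 24.7 CPM in LKO HFD library 2 and 2.75 CPM in WT HFD library 4. The same 2 libraries led the other genes: Tnni2 was at 22.7 and 2.33 CPM, Mybpc1 at 20.4 and 2.33, and Cmya5 at 19.103 and 2.06. Ckmt2 was at 18.7 CPM in LKO HFD library 2 and 1.46 CPM in WT HFD library 4, and Myh7 at 15.2 and 1.40. LKO HFD library 2 held 88.2% to 99.6% of the LKO sum of these genes, other than Ldb3, of which it held 52.2%.

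Muscle genes outside the set moved with them. The fixed list holds 24 muscle genes, and 4 of them, Mb, Myh7, Tnnc2 and Tnni2, belong to the set. These 4 met the rule only with LKO HFD library 2, so their peak there came with the selection. Of the 24, 22 were highest in LKO HFD library 2, and 19 had their second highest level in WT HFD library 4. The exceptions to the first count, Myh4 and Myog, lie outside the set. The 20 that do not belong to the set summed to 661 CPM in LKO HFD library 2 and 87.4 CPM in WT HFD library 4, against 18.2 to 33.8 CPM in the other 14 libraries, where Neb and Des made up most of the sum. In LKO HFD library 2 the actin Acta1 was at 153 CPM, the myosin Myh1 at 112 CPM and the creatine kinase Ckm at 66.2 CPM. Myog, a regulator of muscle formation, was at 0 in all 16 libraries, and Myod1 was at 0.324 CPM in LKO HFD library 2. Without LKO HFD library 2, 36 genes met the rule, and the 8 muscle genes and H4c12 no longer did. Without both that library and WT HFD library 4, 37 genes met it, of which 35 belong to the set. The source of the muscle transcripts was not tested.

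**Figure D4:**
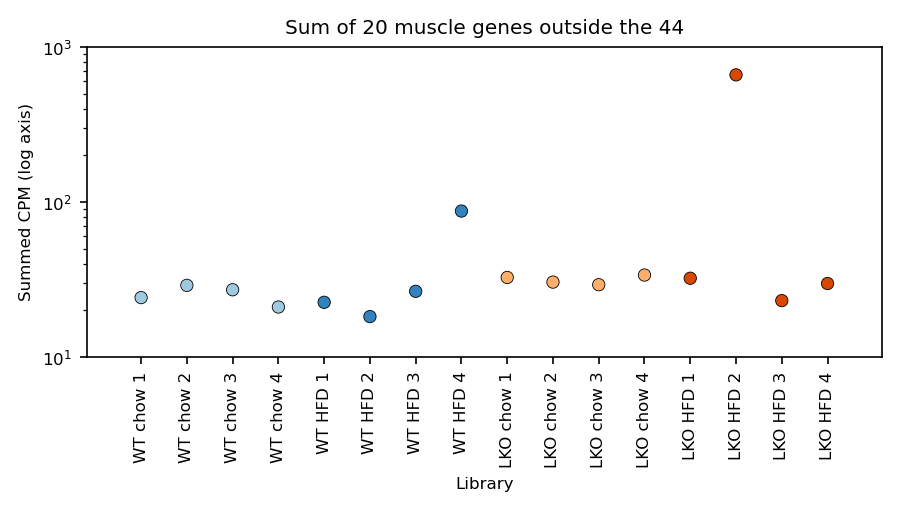
Summed CPM (log axis) of the 20 muscle genes outside the set in each of the 16 libraries, 1 point per library. LKO HFD library 2 lies at 661, WT HFD library 4 at 87.4 and the other 14 libraries between 18.2 and 33.8.

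Ldb3 differed from the other muscle genes. It was at 0.674, 0.875, 0.597 and 0.626 CPM in LKO chow libraries 1 to 4 and at 1.98, 10.5, 2.43 and 2.43 CPM in LKO HFD libraries 1 to 4. The WT chow libraries were at 0.0489, 0.0841, 0.102 and 0.175 CPM, so LKO exceeded WT on chow in every library. On HFD the WT libraries were at 0.297, 0.192, 0.249 and 1.19 CPM, and all 4 LKO HFD libraries lay above the highest of them. The overlap came from WT HFD library 4, which exceeded the LKO chow libraries.

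The other genes with overlap each had a pattern of their own. Dmbt1, a secreted scavenger receptor of mucosal surfaces and ducts, was at 19.5 CPM in LKO chow library 3 and at no more than 0.469 CPM in any other LKO library. In that library the bile duct markers summed to 285 CPM (LKO chow 257 to 297) and the red blood cell markers to 1605 CPM, the highest of the 16 libraries, and their part in the level of Dmbt1 was not tested. Rps6-ps4 was at 23.7 CPM in the same library, at 4.10 CPM in LKO chow library 4 and at 0 in the other 6 LKO libraries. As a copy of Rps6 it may share reads with its parent gene. In WT it reached 0.0910 CPM in 1 library, from about 2 counts over all 8, so no ratio is given. Sprr1a, a cornified envelope protein of skin, was at 0.180, 0.557, 0.413 and 0.679 CPM in LKO on chow, 1.77, 3.28, 9.01 and 1.53 CPM in LKO on HFD and 0, 1.83, 0.580 and 0.0458 CPM in WT on HFD. In WT on chow it was at 0.0489 CPM in library 1 and at 0 in the rest, so the means were higher on HFD in both genotypes, with overlap in WT. Lrrc14b, a leucine-rich repeat protein of striated muscle, was at 1.04, 2.61, 2.77 and 2.59 CPM in LKO on chow and 0.363, 4.04, 3.49 and 1.62 CPM in LKO on HFD. It was at 0 in all 4 WT chow libraries and at 0.232, 0.590, 0.152 and 0.153 CPM in WT on HFD, so only LKO HFD library 1 overlapped with WT, and LKO HFD library 2 did not stand apart as it did for the 8 muscle genes above.

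The first tested comparison asked whether the high-fat diet changed the level of these genes once Arglu1 was absent. It was tested for the 20 genes that reached 2 CPM in LKO on both diets, and edgeR called none of them. Requiring 2 CPM on both diets also limits how far the diets can differ in genes this low. The lack of calls and the direction counts below are therefore not read as an absence of a diet effect. At an unadjusted p under 0.05 stood 4 of the 20, Bex4, Lcn12, Espnl and Gipc2, and DESeq2 called 2 and limma voom 4. Over all 14762 tested genes edgeR called 320 (2.17%), DESeq2 785 and limma voom 1969. The median log2 fold change of the 20 was 0.02, with 10 positive and 10 negative, and that of all tested genes was -0.000638. Bex4 was at 2.20, 2.47, 2.42 and 1.36 CPM in LKO on chow and 5.68, 4.33, 5.40 and 4.09 CPM on HFD, and edgeR put the log2 difference at 1.19 with an SE of 0.34 (adjusted p = 0.0769). Every HFD library of Bex4 lay above every chow library, and DESeq2 and limma voom called it (adjusted p = 0.00265 and 0.00987). Lcn12 was at 4.04, 2.55, 4.32 and 4.18 CPM on chow and 2.14, 1.90, 2.18 and 2.17 CPM on HFD (log2 fold change -0.86, SE 0.28, adjusted p = 0.117, edgeR), and DESeq2 and limma voom called it too (adjusted p = 0.0352 and 0.00787). Its 4 HFD libraries lay within 1.90 to 2.18 CPM, below all 4 chow libraries.

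Espnl was at 4.49, 2.90, 4.59 and 4.44 CPM on chow and 2.5, 2.06, 3.06 and 1.92 CPM on HFD, overlapping through LKO chow library 2 (log2 fold change -0.79, SE 0.29, adjusted p = 0.160, edgeR). Gipc2 differed by a log2 value of 0.66 in edgeR, with an SE of 0.29 (adjusted p = 0.234), and LKO HFD libraries 3 and 4 were its highest. The highest gene of the set, Atp6v0e2, averaged 8.76 ± 1.30 CPM on chow and 9.99 ± 1.43 CPM on HFD (SD of 4 libraries each). Its log2 difference in edgeR was 0.18, with an SE of 0.26 and an adjusted p of 0.767. For Syt14 the means were 3.68 ± 1.71 and 6.29 ± 0.794 CPM (log2 fold change 0.76, SE 0.37, adjusted p = 0.305, edgeR). Of the genes that edgeR did not call, limma voom also called Espnl and Syt14 (adjusted p = 0.00942 and 0.00912).

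The other 24 genes met the minimum on 1 diet only, and their diet differences in LKO are a description. G6pc2 was at 11.5, 2.75, 6.29 and 3.34 CPM in LKO chow libraries 1 to 4 and at 1.25, 1.05, 1.13 and 1.92 CPM in LKO HFD libraries 1 to 4, so every HFD library lay below every chow library. The means were 5.97 ± 4.0 and 1.34 ± 0.395 CPM (SD, n = 4 each), a log2 difference of -2.17 with an SE of 0.38, and of -1.64 without LKO chow library 1, the highest. In WT, where the rule set only a ceiling over both diets, G6pc2 fell from 0.831, 0.589, 0.558 and 0.612 CPM on chow to 0.0989, 0.192, 0.166 and 0.0458 CPM on HFD (edgeR log2 difference -2.39, SE 0.58, adjusted p = 0.0432). G6pc2 was thus lower in every HFD library than in every chow library of the same genotype.

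Ldb3 was higher in all 4 LKO HFD libraries than in all 4 LKO chow libraries, by a log2 value of 2.63 with an SE of 0.57. Without LKO HFD library 2, in which its muscle companions were high, the difference was 1.69, and it was 1.69 without both LKO HFD library 2 and WT HFD library 4. Vgll3 was at 4.82, 2.78, 4.0 and 3.81 CPM in LKO on chow and 1.67, 1.38, 2.60 and 1.53 CPM on HFD, a log2 difference of -1.11 (SE 0.32). In WT Vgll3 was at 0.196, 0.168, 0.458 and 0.263 CPM on chow and 0.791, 0.385, 0.207 and 0.687 CPM on HFD. Veph1 was at 2.14, 1.70, 1.79 and 1.97 CPM in LKO on chow and 2.83, 2.71, 4.47 and 2.80 CPM on HFD, a log2 difference of 0.74 (SE 0.31). The difference was 3.08 (SE 0.85) for Sprr1a, with more than 50% of its LKO sum in LKO HFD library 3, and 1.26 (SE 0.47) for Scara5, from LKO HFD libraries 3 and 4.

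Of the 36 genes that passed the filter on low counts, edgeR called 2 for diet in LKO (5.56%), against 2.17% of all 14762 genes tested. They were G6pc2 and Ldb3, both of which met the minimum on 1 diet only, so nothing is read from the count. The 8 genes that did not pass the filter were Ckmt2, Cmya5, Dmbt1, Mb, Mybpc1, Rps6-ps4, Tnnc2 and Tnni2. At an unadjusted p under 0.05 stood 13 of the 36, and DESeq2 called 5 and limma voom 7. Over all genes DESeq2 called 785 and limma voom 1969, and nothing is read from these counts either. Every LKO HFD library lay above every LKO chow library for 4 of the 36 genes (5.66% of all tested genes), which were Bex4, Veph1, Ldb3 and Sprr1a, and below for 3 (4.42%), which were G6pc2, Lcn12 and Vgll3. Of these 7 genes, only Bex4 and Lcn12 met the minimum on both diets.

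**Figure D5:**
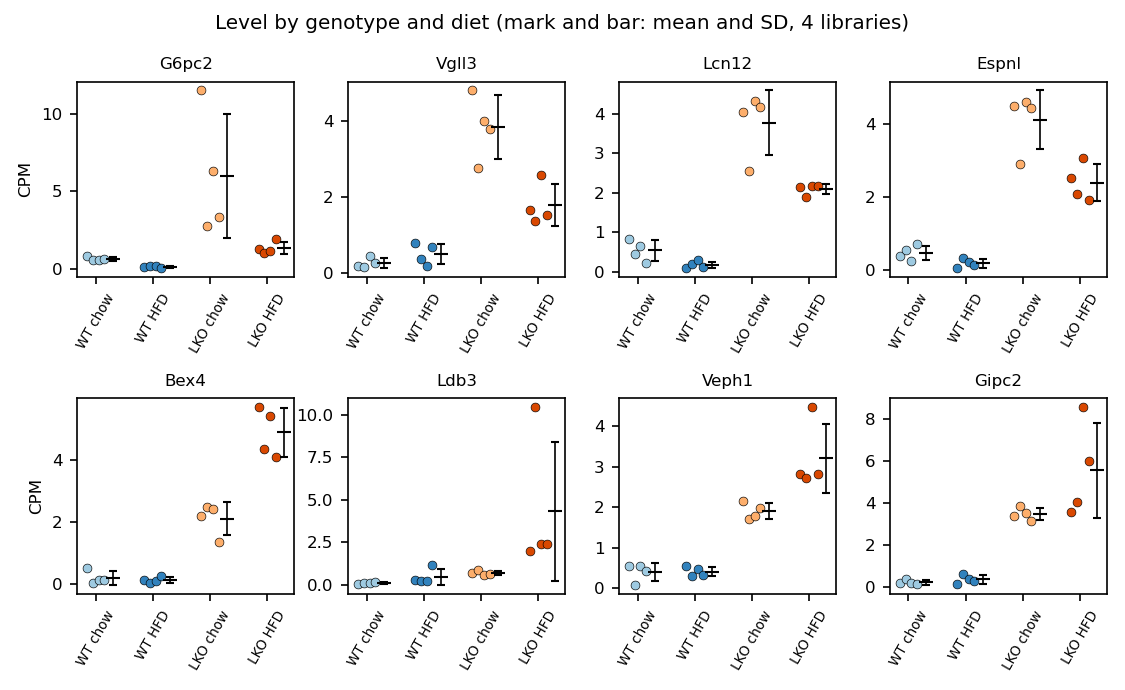
CPM of 8 genes in the 4 groups, 1 point per library, with the mean and SD of 4 libraries beside each group and a separate y axis for each gene. In LKO, G6pc2, Vgll3 and Lcn12 are lower in every HFD library than in every chow library and Espnl in all but 1 chow library, while Bex4, Ldb3 and Veph1 are higher in every HFD library, with LKO HFD library 2 of Ldb3 at 10.5.

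In WT, where all of these genes were near silent, G6pc2 was the 1 gene of 36 called for diet, against 1.95% of all tested genes. DESeq2 called 6 and limma voom none, and 10 were at an unadjusted p under 0.05 in edgeR. The matching shares over all genes are not given, so nothing is read from these 3 counts. The difference of the LKO to WT ratio between the diets was fitted as an interaction. None of the 36 genes was called by edgeR, against 0.0203% of all genes, and the lowest adjusted p was 0.404. The interaction includes the diet difference in LKO, which helped to select 16 of the 36, Vgll3 among them. With 3 calls among all 14762 genes, a count of 0 in 36 cannot decide the question, and nothing is read from it. At an unadjusted p under 0.05 there were 5, and limma voom and DESeq2 called none, DESeq2 giving no adjusted p for 35 of them. The genes with the lowest p were Vgll3 (log2 value -1.94, SE 0.55) and Alpk3 (-2.24, SE 0.66). Alpk3 was at 0.0977, 0.126, 0 and 0.0875 CPM in WT on chow and 0.148, 0.337, 0.497 and 0.641 CPM in WT on HFD, so its value rests on WT levels of a few counts.

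LKO chow libraries 3 and 4 differ from LKO chow libraries 1 and 2 in many genes of these data, and the set was compared between them as a description. Both were above libraries 1 and 2 for 10 of the 36 tested genes (27.9% of all tested genes) and below for 5 (34.0%). The 10 were Atp6v0e2, Fxyd7, Lcn12, Mtnr1a, Myo15a, Nat8f5, Pax8, Pgpep1l, Sbsn and Trim72, and the 5 were Cage1, H4c12, Ldb3, Prrg4 and Syt14. For Myo15a the values were 2.47, 1.15, 4.59 and 4.59 CPM and for Prrg4 2.52, 2.79, 1.62 and 0.579 CPM in LKO chow libraries 1 to 4. The shares were thus close to or below those of all genes. What separates these libraries was not tested.

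Most neighbours of these genes on the chromosome were not called between the genotypes. The nearest protein-coding gene on each side gave 88 neighbours, of which 66 were tested. On chow 11 of these were higher in LKO (16.7%, against 13.3% of all tested genes) and 13 lower (19.7%, against 11.7%), and on HFD 10 were higher (15.2%, against 10.8%) and 10 lower (15.2%, against 7.59%). The median log2 fold change of the neighbours was 0.03 on chow and 0.02 on HFD, and that of all genes 0.03 and -0.01. On both diets 7 neighbours rose and 8 fell. Those that rose included Slc28a1 next to Alpk3 (log2 fold changes 2.50 on chow and 2.76 on HFD, adjusted p = 1.77e-05 and 3.58e-06, edgeR), Sspo next to Atp6v0e2 (1.90 and 2.11, adjusted p = 0.000140 and 8.25e-05) and Tceal8 next to Bex4 (1.34 and 1.23, adjusted p = 9.92e-07 and 2.80e-06). Slc28a1 is a nucleoside transporter, Sspo encodes the secreted SCO-spondin and Tceal8 belongs to a family of small X-linked proteins related to Bex4. Both neighbours of Nat8f5, Nat8f6 and Nat8, rose on both diets, as did H4c11 beside H4c12, and all of these are close copies of the gene they flank. Psd4, beside Pax8, rose by 0.81 and 0.70. Among those that fell, Ptgds, a prostaglandin D synthase beside Lcn12, fell by 1.28 on chow and 1.62 on HFD (adjusted p = 0.00616 and 0.00695, edgeR). Hnrnpa3, an RNA-binding protein, and Mtx2, of the mitochondrial outer membrane, flank Rps6-ps4 at 467251 and 314247 bases. Hnrnpa3 fell by 0.88 and 0.99, and Mtx2 fell by 0.40 and 0.53. Shpk, a sugar kinase beside Trpv1, fell by 0.82 and 0.79, and F11, a coagulation factor beside Mtnr1a, fell by 0.74 and 0.76. Abcb11, the bile salt export pump, beside G6pc2, fell by 0.46 and 0.37, Chpt1, an enzyme of phosphatidylcholine synthesis beside Mybpc1, fell by 0.48 and 0.43, and C8g, a complement component beside Lcn12, fell by 0.45 and 0.47.

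Lists of genes for tissues and pathways were set beside the 44 genes. Scara5 and Nat8f5 belong to the list of male-biased liver genes. Cyp4a12a and Cyp4a12b, also on that list, passed both thresholds but were left out by symbol. Of the list's 26 tested genes, 16 rose and 3 fell in LKO on chow. On HFD 14 rose and 2 fell, and the medians were 1.5 on chow and 0.70 on HFD. The list of female-biased liver genes, which holds none of the set, moved the other way, with 1 of 31 higher and 21 lower on chow (median -1.5) and 3 higher and 10 lower on HFD (median -0.73). Mb, Myh7, Tnnc2 and Tnni2 belong to the muscle list. No gene of the set is on the list of p53 targets, of which 25 of 34 rose on chow and 23 on HFD. Psrc1, which is on that list, passed both thresholds (0.418 CPM in WT, 32.1 CPM in LKO) but was left out by symbol. The list of interferon-stimulated genes, of which 24 of 24 rose on chow and 19 on HFD, holds no gene of the set. The lists of testis, neuronal and kidney tubule genes held none of the set either. Of them 1 of 7, 2 of 16 and 4 of 11 tested genes rose on chow, and 0, 0 and 4 on HFD, where 13.3% and 10.8% of all tested genes rose. Their sums overlapped between the genotypes on both diets. Adipocyte genes and PPARA targets, with no gene of the set, also overlapped in sum. On chow 6 of 13 and 10 of 21 were called higher and 0 and 1 lower, and on HFD 5 and 7 higher and none lower. Aqp7, on both of these lists, passed both thresholds (0.486 CPM in WT, 16.6 CPM in LKO) but was left out by symbol.

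Markers of the other cells of the liver were summed in each library. Those of T and NK cells, B cells, macrophages, neutrophils, endothelial, stellate, red blood and mesothelial cells overlapped between WT and LKO on both diets. Bile duct markers on chow ran from 182 to 249 CPM in the WT libraries and from 257 to 297 CPM in the LKO libraries, without overlap. On HFD they ran from 197 to 238 and 225 to 295 CPM, with overlap. On each diet 2 of 15 tested genes rose and none fell. The median log2 fold change was 0.01 on chow and -0.31 on HFD, so the typical marker was not higher in LKO. Intestinal genes on chow ran from 1304 to 1594 CPM in the WT libraries and 2115 to 3794 CPM in the LKO libraries, and from 1511 to 2106 and 3859 to 3882 CPM on HFD, without overlap. Of 11 tested genes 3 were called higher and 2 lower on chow and 2 higher and 1 lower on HFD, and the medians of the log2 fold changes were negative, -0.26 and -0.30, where the sums were higher in LKO. Genes of fetal liver on chow ran from 37.1 to 48.7 CPM in the WT libraries and 68.5 to 96.1 CPM in the LKO libraries, and from 39.4 to 64.3 and 76.5 to 153 CPM on HFD, without overlap. Of 13 tested genes 3 were called higher and none lower on chow (median 0.25) and 2 higher and 1 lower on HFD, where the median of -0.25 was negative and the sum was higher in LKO. Cell cycle genes summed to 139 to 222 against 251 to 436 CPM on chow, without overlap, and 158 to 311 against 264 to 412 CPM on HFD, with overlap, and 2 and 3 of 21 tested genes rose, with medians of 0.40 and -0.35. Pancreatic exocrine genes summed to 9.54 to 12.0 against 14.3 to 17.5 CPM on chow, without overlap, and 7.56 to 52.2 against 13.3 to 15.6 CPM on HFD, with overlap, and none of 4 tested genes was called by edgeR. The part of these cells and programmes in the levels of the 44 genes was not tested.

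The borders of the set are not sharp. Just inside the WT ceiling of 0.5 CPM were Vtcn1 (0.470 CPM in WT), Pgpep1l (0.472) and Myh7 (0.497), and just outside it Ly6c1 (0.515), Scn8a (0.516) and Gpx6 (0.526). Just inside the LKO minimum of 2 CPM were Cage1 (2.03 CPM in LKO), H4c12 (2.04) and Ankrd55 (2.05), and just outside it Slc6a19 (1.90), Fabp3 (1.93) and Esyt3 (1.96). A smaller deposited table, of genes above 0 in all 16 libraries, holds 25 of the 44 genes and lacks 19.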

How the data were processed

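Poly(A) libraries were prepared with NEBNext Ultra II and sequenced on a NovaSeq as paired reads of 150 bases, per the labels' protocols. The submitters' processing notes name mm10, Bowtie2 and DESeq2. The counting tool, the annotation and the use of strand are not given in the sources used here. Unnormalised estimated counts (expected counts) under gene symbols were deposited by the authors in 2 tables. In the larger one, of 35712 genes, the 8 chow columns stood 1 row below their genes. After they were moved up by 1 row, the chow values of all 15119 genes of the smaller table matched within a relative tolerance of 0.005, against 1 gene before. In the HFD columns, which were not moved, 1 value differed by more, that of Acat2, which is not used. All samples' columns were matched to labels by name. Sequences and start sites are RefSeq's (GRCm38.p6), and exon lengths are GENCODE's (GRCm38).

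CPM were computed from the counts and the column sums. Counts were rounded and tested with edgeR 4.0.16 (R 4.3.3; TMM, filterByExpr, robust quasi-likelihood fit of all 16 libraries with 1 mean per group), with Benjamini-Hochberg adjustment over all 14762 genes and a threshold of 0.05. Each SE was derived as the absolute log2 fold change divided by the square root of edgeR's quasi-likelihood F statistic. DESeq2 1.42.0 and limma 3.58.1 (voom with quality weights) were alternatives, beside other scalings, filters, tables, a replicate block and leaving out libraries. On simulated data for HFD against chow in LKO (14762 genes), 70% of 2-fold and 88% of 4-fold changes were called, with 12 false calls. The changed genes were drawn at random from all tested genes and not at the low counts of this set. These rates therefore do not give the power for its genes. Replicate numbers did not pair the libraries: deviations from the group means of same-numbered libraries correlated above 0.1 in 4 of 24 pairs, with a median of -0.023.

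The members, gene lists and tests were chosen with earlier results of these data known. Restricting the test of HFD against chow in LKO to the 20 genes above the LKO minimum on both diets was decided after the values were seen. Values per library or ranges are given for the 12 genes with the highest LKO mean, the 8 with the largest ratio, those called for diet, those on a list, the 4 with the largest and the 4 with the smallest spread and the 3 on each side of each threshold. Every gene of the set is named, and those that this rule does not cover were described after their values were seen.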

Additional observations from a re-analysis of the deposited data

Results flagged for a closer look

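In each group of 4 libraries, the highest or lowest was singled out where its gap to the nearest other exceeded 0.829 of the range of the group. This held for 35 of 176 groups (44 genes in 4 groups). Chance gives about 1 in 20, and groups with 3 libraries at or near 0 pass easily. Of these libraries, 9 were LKO HFD 2 and 8 were WT HFD 4.

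In LKO HFD library 2, Mb was at 50.2 CPM (others 0 to 0.522), Tnnc2 at 24.7 (0 to 0.104), Tnni2 at 22.7 (0 to 0.417), Mybpc1 at 20.4 (0 to 0.469), Cmya5 at 19.103 (0.0426 to 0.104), Ckmt2 at 18.7 (0 to 0.0522), Myh7 at 15.2 (0.107 to 0.337) and Ldb3 at 10.5 (1.98 to 2.43). Lcn12 was low in the same library, at 1.90 CPM (2.14 to 2.18). In WT HFD library 4 the same 8 muscle genes stood out, Mb at 3.43 CPM, Tnnc2 at 2.75, Tnni2 and Mybpc1 at 2.33 each, Cmya5 at 2.06, Ckmt2 at 1.46, Myh7 at 1.40 and Ldb3 at 1.19, with the other WT HFD libraries at most 0.348.

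In LKO on chow, Dmbt1 was at 19.5 CPM in library 3 (others 0 to 0.270) and Cage1 at 3.10 in library 1 (1.33 to 1.63). Library 1 was low for Lrrc14b, at 1.04 CPM (2.59 to 2.77), and library 2 for Espnl, at 2.90 (4.44 to 4.59), and Lcn12, at 2.55 (4.04 to 4.32). In LKO on HFD, Sbsn was at 3.49 CPM in library 1 (2.14 to 2.30) and Veph1 at 4.47 in library 3 (2.71 to 2.83).

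The remaining values lie below 0.5 CPM, the WT ceiling of the rule. In LKO on chow they were Ckmt2 at 0.0522 in library 4 and Tnni2 at 0.135 in library 1. In WT on chow they were Sprr1a at 0.0489 in library 1, Mb at 0.0420 in library 2, Syt14 at 0.304 in library 3, and Cmya5 at 0.131 and Rps6-ps4 at 0.0910 in library 4. In WT on HFD they were Rps6-ps4 at 0.0004 in library 2, and Pax8 at 0.456, Dmbt1 at 0.124 and Syt14 at 0.0414 in library 3.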

How the results depend on the processing

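The size of the set followed its thresholds. It was 18 with a WT ceiling of 0.25 CPM, 112 with 1 CPM, 138 with an LKO minimum of 1 CPM, 6 with 4 CPM and 25 in the smaller table, and 36 to 54 when each library was left out in turn. Of the 44 genes, 30 remained with medians in place of means, 23 in chow libraries alone and 29 in HFD libraries alone.

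The count of 2 genes called for diet in LKO became 5 in DESeq2, 7 in limma voom, 0 with a mean count of at least 50 (where G6pc2 and Ldb3 are not tested) and 1 with only the groups compared. Leaving out LKO chow libraries 3 and 4 gave 1 and leaving out 1 and 2 gave 7 (both chosen after seeing the data), and each library left out in turn gave 1 to 3. With a replicate block it was 2, with the same genes, and the block kept the call of G6pc2 for diet in WT and those of the 15 neighbours named for genotype on both diets. Counts over the gene lists moved by at most 2 genes under the block. G6pc2 was -2.18 with only the groups compared, where its call was lost, and ran from -2.41 to -1.64 when each library was left out. The call of Ldb3 was lost in limma voom (2.47), with only the groups compared (2.61), without LKO chow libraries 3 and 4 (2.48), and without LKO chow library 3, LKO chow library 4 or LKO HFD library 2, within a range of 1.69 to 2.86 over the libraries left out. It was kept without both LKO HFD library 2 and WT HFD library 4 (1.69). Bex4, Vgll3, Lcn12, Espnl and Sprr1a passed the threshold in 1 or more alternatives and Scara5 in none. G6pc2, Ldb3, Vgll3, Sprr1a and Scara5 met the LKO minimum on 1 diet only. Their diet difference helped to select them, so nothing is read from their calls kept, lost or gained in LKO. The causes were not tested.

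Over all genes, the 320 called for diet in LKO became 785 in DESeq2, 1969 in limma voom, 181 with only the groups compared, 176 without LKO chow libraries 3 and 4, 2739 without LKO chow libraries 1 and 2, 91 without LKO HFD library 2 and WT HFD library 4, and 111 to 631 when each library was left out. For genotype on chow, 3689 became 2274 with only the groups compared, and on HFD 2712 became 4621 in limma voom and 1653 without LKO HFD library 2 and WT HFD library 4. With library totals as the only scaling, 2646 genes were higher and 1006 lower on chow, against 1956 and 1733 with TMM. Without a call in any run, the interaction held 0 of the tested genes of the set in 28 alternatives. As it includes the diet difference in LKO, nothing is read from this. A count of 0 allows a level of up to 0.157 CPM in the shallowest library, so lower levels cannot be told from 0.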
